A study of Mus musculus with 3 samples.

Results

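Hepatocyte identity is held by a small set of transcription factors, and 8 of them are described here in a mouse liver tumour line: Hnf4a, Foxa1, Foxa2, Foxa3, Cebpa, Onecut1, Nr1h4 and Prox1. They were chosen by gene name, with every probe that carries one of these names and is not a control. This gave 12 probes of the 56605 on the array, and 8 genes of the 24945 that could be named. Hnf4a, Onecut1, Nr1h4 and Prox1 had 2 probes each, and the other 4 genes had 1 each. The cells were Hepa1c1c7, an established mouse hepatoma line often used to study drug metabolism, and they had been transfected with a Cd74 vector, a Tmem54 vector or an Empty vector. Cd74 encodes the invariant chain of MHC class II, which is also a receptor for the cytokine MIF, and Tmem54 encodes a small transmembrane protein. Total RNA of each culture was labelled with Cy3 and hybridised to 1 Agilent mouse expression array of 1 colour, so each vector has 1 array. The sources used here give no promoter for the inserts, no time after transfection, and no statement on whether the cells were a pool or a selected clone.

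In liver these factors work as a network. HNF4A is a nuclear receptor that binds the control regions of a large share of hepatocyte genes. The FOXA proteins are forkhead pioneer factors that open chromatin at liver enhancers, C/EBPα drives metabolic genes of the mature hepatocyte, and ONECUT1 (HNF6) acts with them from the liver bud onward. NR1H4 is FXR, the receptor for bile acids, and PROX1 is a homeobox factor of early hepatoblasts that also marks lymphatic endothelium. In liver development these factors bind one another's promoters, and Hnf4a has 2 start regions: an upstream one, called P2, known from fetal liver and pancreas, and a downstream one, called P1, that serves the adult hepatocyte.

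The probes are 60 bases long, and 2 of them are printed because they fall in coding sequence for the DNA-binding part of the protein and bear on the readings below. The Hnf4a probe A_52_P69656 lies at chr2:163378302-163378361 (mm9, plus strand) and carries bases that encode part of the zinc-finger domain. The Onecut1 probe A_51_P368894 lies at chr9:74737272-74737331 (mm9, plus strand) and carries bases that encode part of the homeodomain.
Hnf4a: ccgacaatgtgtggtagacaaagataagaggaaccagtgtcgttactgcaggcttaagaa
Onecut1: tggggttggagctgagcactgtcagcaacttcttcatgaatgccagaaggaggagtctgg
The other Hnf4a probe, A_55_P1959633, starts 20.2 kb further along the gene at chr2:163398548-163398607, and both Hnf4a probes list all 3 curated RefSeq transcripts of the gene.

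The arrays differed little in depth of signal. Spots well above background, as Feature Extraction calls them from the local background, came to 56.1% on the Cd74 array, 55.7% on the Tmem54 array and 57.2% on the Empty array, control spots left out. The lowest signal well above background was 13.5, 13.9 and 13.1 units in the same order, and no spot was saturated (0 spots). The transfected genes matched the labels: the Cd74 probe read 10856 on the Cd74 array, against 22.4 on the Tmem54 array and 26.8 on the Empty array, and the Tmem54 probe read 19747 on the Tmem54 array but did not clear background on the Cd74 and Empty arrays. A single array per vector allows no test, and every difference below compares single RNA samples. A lower signal in such a bulk RNA sample cannot tell fewer cells with a transcript from less of it per cell.

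Of the 8 factors, 5 were detected on at least 1 array (62.5%), where 63.5% of all named genes were. Foxa1, Foxa2, Onecut1 and Nr1h4 were well above background on all 3 arrays, Foxa3 was so on the Cd74 and Empty arrays only, and Hnf4a, Cebpa and Prox1 were on none. The share of detected members was thus near that of all genes.

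The Hnf4a probe in the zinc-finger sequence read 3.004 units on the Cd74 array, 3.18 on the Tmem54 array and 2.85 on the Empty array. The Hnf4a probe further along the gene read 3.28 on the Cd74 array, 3.47 on the Tmem54 array and 3.07 on the Empty array. All 6 readings lay close to the median of the negative control spots, which was 3.06 on the Cd74 array, 3.22 on the Tmem54 array and 2.92 on the Empty array. They were also surrogates, meaning values that Feature Extraction puts in place of a signal below its own error. So the hub factor of the network had no measured signal from either probe, and no fold change can be given for it.

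Cebpa, read by 1 probe at chr7:35906517-35906576 (mm9, plus strand), had 3.95 units on the Cd74 array, 3.33 on the Tmem54 array and 3.06 on the Empty array, none well above background. One Prox1 probe read 5.97 units on the Cd74 array, 4.59 on the Tmem54 array and 7.28 on the Empty array, and the other Prox1 probe read 3.05, 3.21 and 2.95 units in the same order. None of these readings was well above background either. The first Prox1 probe, unlike the Hnf4a probes, gave no surrogate on any array. Its readings lay above the negative control median of each array. They lay below the highest negative control spot, which was 37.4 on the Cd74 array, 80.6 on the Tmem54 array and 26.4 on the Empty array. Over the 6 probes of the members that were dim on every array, the 18 readings ran between 2.85 and 7.28 units, and 13 of them were surrogates. Before background subtraction these spots read 29.5 to 40.8 units over a local background of 27 to 34. Among them, 4 probes were surrogates on every array, and their apparent log2 differences lay between 0.11 and 0.16 for Cd74 and for Tmem54, each against Empty. A difference of that size carried no measurement here.

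**Figure D1:**
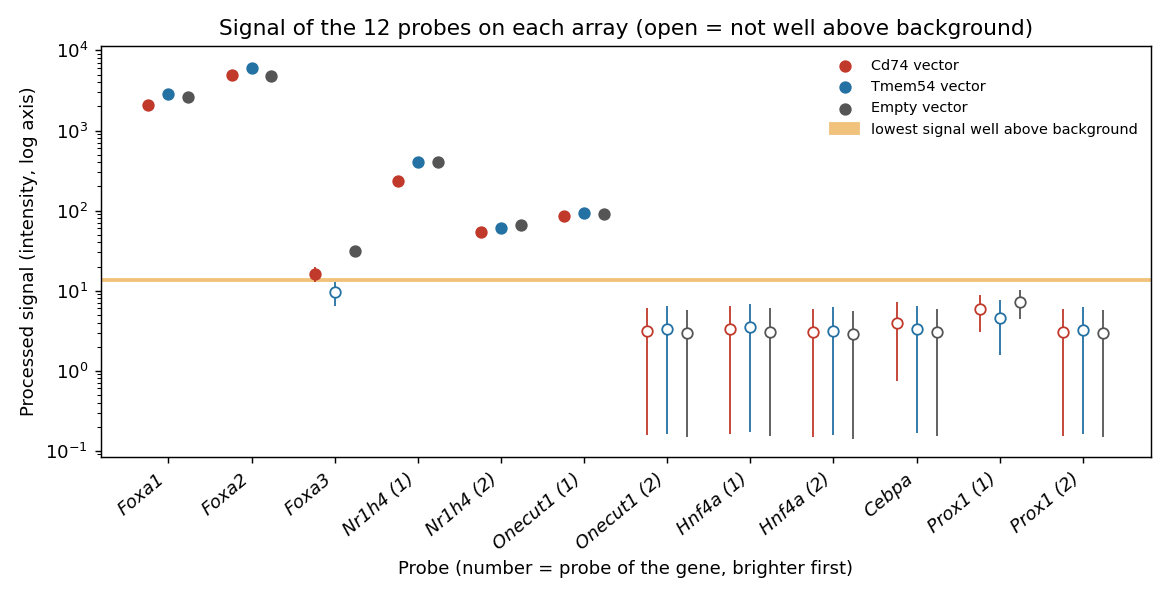
Processed signal in intensity units (log axis) of each of the 12 probes on the Cd74, Tmem54 and Empty arrays, with the error of the processed signal as bars and open symbols for readings not well above background; the band marks the lowest signal well above background. Hnf4a, Cebpa and Prox1 lie below the band on every array, Foxa3 crosses it, and Foxa1, Foxa2, Onecut1 (1) and both Nr1h4 probes stand above it on all 3 arrays.

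Of the FOXA genes, the pioneer factors, Foxa1 and Foxa2 were detected on every array. The Foxa2 probe at chr2:147868669-147868728 (mm9, minus strand) read 4865 units on the Cd74 array, 6044 on the Tmem54 array and 4856 on the Empty array. Its log2 difference was 0.07 ± 0.20 for Cd74 against Empty and 0.30 ± 0.20 for Tmem54 against Empty. The error here is the model error of Feature Extraction carried to the difference, which for bright spots comes mainly from a preset share of the signal and says nothing of the spread between cultures. Foxa2 was thus highest on the Tmem54 array, by 1.23-fold over Empty, while the Cd74 and Empty readings lay within 1.05-fold of each other. Among the 1517 genes whose signal lay within 0.5 log2 units of that of Foxa2, 90% differed by -0.12 to 0.14 between Tmem54 and Empty, and the Foxa2 value lay above that range.

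Foxa1, which acts with Foxa2 in liver budding, had 2071 units on the Cd74 array, 2845 on the Tmem54 array and 2584 on the Empty array. The probe lies at chr12:58641764-58641823 (mm9, minus strand). The log2 difference was -0.25 ± 0.20 for Cd74 against Empty, inside the range of -0.33 to 0.36 that held 90% of 1838 genes of like signal, and 0.13 ± 0.20 for Tmem54 against Empty. Cd74 and Tmem54 differed by -0.38 ± 0.20. The Cd74 array was the lowest of the 3 for Foxa1 and the Tmem54 array the highest, as it was for Foxa2, with all gaps under 2-fold.

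Foxa3, which supports glucose output of the liver during fasting, was a dim reading. Its probe at chr7:19599053-19599112 (mm9, minus strand) gave 16.1 ± 3.4 units on the Cd74 array, 9.70 ± 3.29 on the Tmem54 array and 31.6 ± 4.4 on the Empty array (error of the processed signal). The Tmem54 reading was not well above background, and the Cd74 reading was close to the lowest signal that is. Against Empty, Foxa3 was 1.87-fold lower with Cd74, a log2 difference of -0.91 ± 0.37, and at least 2.29-fold lower with Tmem54. Cd74 was at least 1.22-fold higher than Tmem54. The raw spot means were 48.6 over a background of 34.5 on the Cd74 array, 41.9 over 33 on the Tmem54 array and 65.0 over 32 on the Empty array, so the difference rests on readings close to background. With the normexp background correction the log2 differences were -0.23 for Cd74 against Empty and a bound of -0.41 for Tmem54 against Empty. Probes printed 10 times per array at a signal like that of Foxa3 had a median SD between their spots of 0.70 on the log2 scale on the Cd74 array (2 probes), 0.69 on the Tmem54 array (4 probes) and 0.16 on the Empty array (5 probes).

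Onecut1 was detected by its homeodomain probe alone, with nearly the same signal on all 3 arrays. That probe read 84.8 units on the Cd74 array, 93.0 on the Tmem54 array and 90.1 on the Empty array. The log2 difference was -0.02 ± 0.22 for Cd74 against Empty and 0.03 ± 0.22 for Tmem54 against Empty. The second Onecut1 probe starts 130 bases further on, lists no curated transcript of the gene, and gave 3.16 units on the Cd74 array, 3.28 on the Tmem54 array and 2.95 on the Empty array, none well above background. Detection of Onecut1 therefore rests on 1 probe of 2.

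Nr1h4, the bile acid receptor FXR, was lower on the Cd74 array than on both other arrays in its brighter probe. That probe, at chr10:88917222-88917281 (mm9, minus strand), lists all 3 curated transcripts and read 234.6 units on the Cd74 array, 402.5 on the Tmem54 array and 401.9 on the Empty array. Cd74 against Empty gave a log2 difference of -0.71 ± 0.21, or 1.64-fold lower. Tmem54 against Empty gave -0.01 ± 0.20, and Cd74 against Tmem54 gave -0.70 ± 0.21. Genes of like signal differed by -0.45 to 0.49 between Cd74 and Empty in 90% of 1192 cases, and Nr1h4 lay below that range. The Tmem54 and Empty readings nearly coincided.

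The second Nr1h4 probe did not carry the same size of difference. It lies at chr10:88960160-88960219 (mm9, minus strand), 42.9 kb from the first, comes from a cDNA clone and lists none of the curated transcripts. Its signal was 54.1 units on the Cd74 array, 61.4 on the Tmem54 array and 66.1 on the Empty array, which gave a log2 difference of -0.22 ± 0.23 for Cd74 against Empty. The Cd74 reading was again the lowest of the 3. The probes differed by 0.49 in this comparison, with a model error of 0.31 on that gap, and 94.0% of the 6542 genes with more than 1 measured probe had a smaller gap. The mean of both Nr1h4 probes was -0.47, so the size for this gene depends on the probe.

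**Figure D2:**
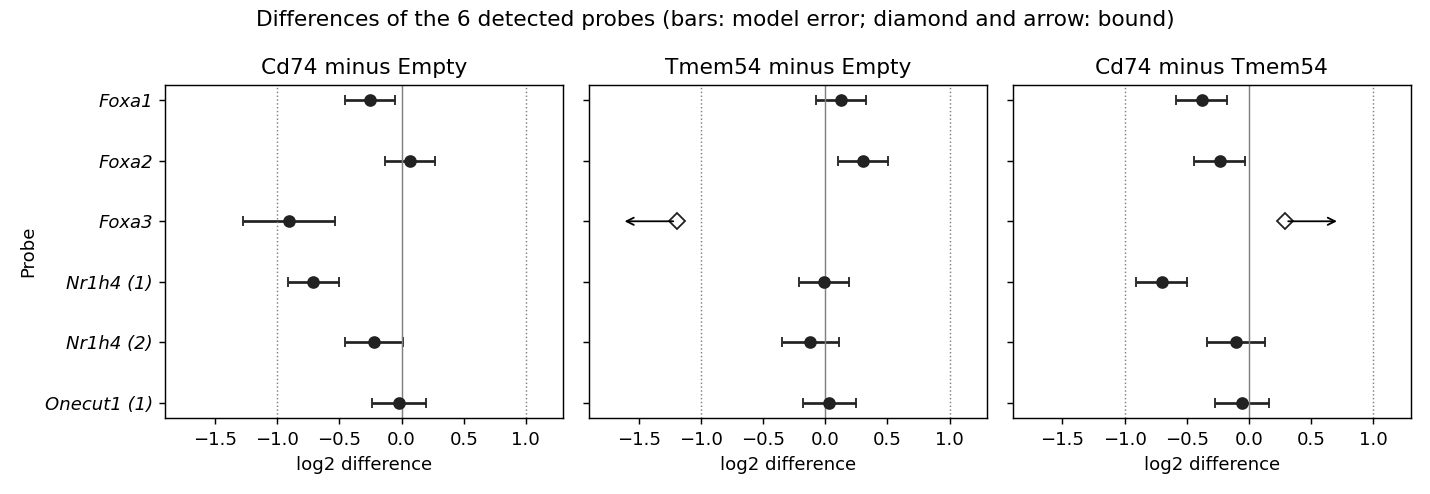
Log2 differences of the 6 probes detected on at least 1 array, for Cd74 minus Empty, Tmem54 minus Empty and Cd74 minus Tmem54, with the model error as bars, diamonds with arrows for bounds, and dotted lines at 2-fold. Nr1h4 (1) at -0.71 and Foxa3 at -0.91 stand left of 0 for Cd74 minus Empty, while for Tmem54 minus Empty only the Foxa3 bound of -1.19 passes a dotted line.

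Counted together, none of the 5 members compared between Cd74 and Empty differed by 2-fold (0 members), where 2.42% of the 15674 genes compared did. Of those genes, 160 were higher (1.02%) and 220 lower (1.4%). Scaling each array on the median of its own detected probes gave 126 higher of 420, and under it Foxa3 passed 2-fold at -1.03. The member median was -0.25 and that of all genes 0.01, with 4 of the 5 members below 0, where 47.6% of all genes were. Between Tmem54 and Empty, 1 of 5 members passed 2-fold, Foxa3 by its bound, where 0.81% of 15563 genes were at least 2-fold lower, 0.52% at least 2-fold higher and 1.33% passed in either direction. The member median was 0.03 and that of all genes -0.00. Between Cd74 and Tmem54 no member passed 2-fold (0 of 5), where 3.32% of 15466 genes did, 1.63% higher and 1.69% lower. The medians there were -0.24 for the members and 0.03 for all genes. These comparisons share arrays, so the values are given side by side and not as independent readings.

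**Figure D3:**
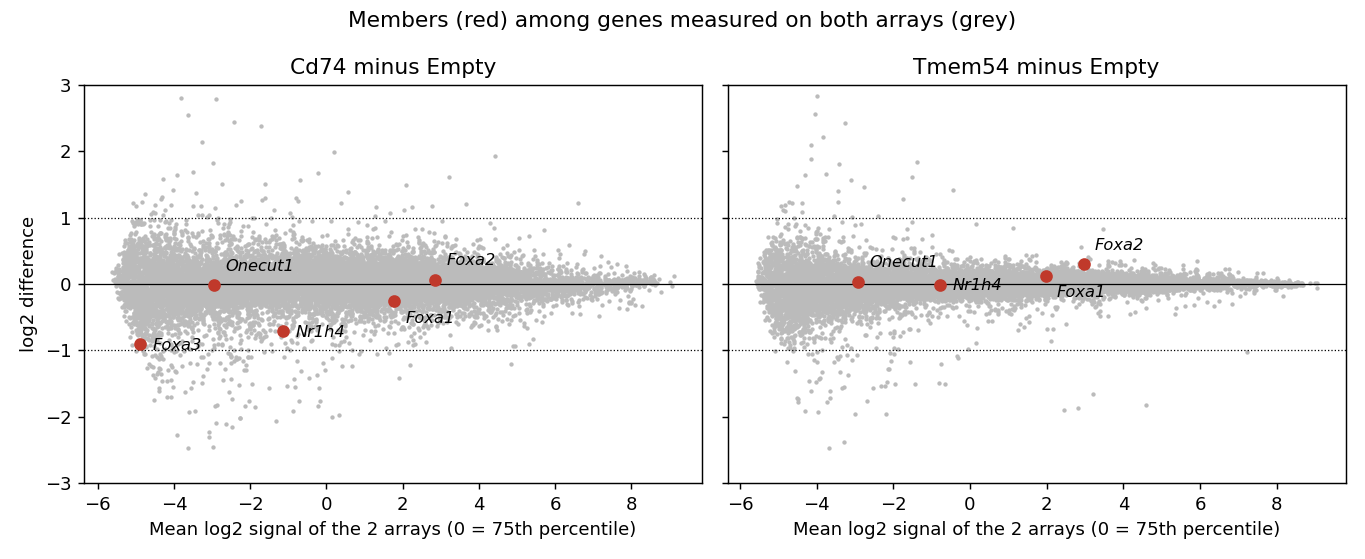
Log2 difference against the mean log2 signal of the 2 arrays (0 is the 75th percentile of an array) for genes measured on both arrays, for Cd74 minus Empty and Tmem54 minus Empty, with the lineage factors in red, dotted lines at 2-fold and genes beyond 3 log2 units not drawn. Nr1h4 and Foxa3 lie toward the lower edge of the cloud for Cd74, and Foxa2 lies at its upper edge for Tmem54.

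Relatives of these factors were on the array for all 23 genes listed, and 15 were detected. None passed 2-fold in any comparison (0 genes), where 1.33% to 3.32% of all genes compared did. For Cd74 against Empty the median was 0.03, with the highest values in Ddit3 (CHOP), a stress-induced C/EBP relative, at 0.89 ± 0.20, and Foxo3, a forkhead factor downstream of insulin signalling, at 0.45 ± 0.20. Foxm1, a forkhead factor of the cell cycle, was lowest at -0.48 ± 0.20, next to Cebpd at -0.27 ± 0.20. Ddit3 read 1855 units on the Cd74 array, 1018 on the Tmem54 array and 1046 on the Empty array. Between Tmem54 and Empty the median was -0.05. Onecut2 at 0.24 and Nr1h3 (LXRα) at 0.23 stood at the top, and Foxd3 at -0.81 ± 0.37, a dim probe, and Cebpd at -0.68 ± 0.20 at the bottom. Cebpb, the C/EBP gene of the acute phase response, was detected where Cebpa was not, with 22033 units on the Cd74 array, 15585 on the Tmem54 array and 17031 on the Empty array. Hnf4g, the nearest relative of Hnf4a, was detected at 19.8 units on the Cd74 array, 24.6 on the Tmem54 array and 24.4 on the Empty array, and its log2 difference between Cd74 and Empty was -0.24 ± 0.34.

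Of 30 other liver transcription factors, 23 were detected, and Nr5a2, Nr0b2, Nr1i2, Ppara, Gata6, Klf15 and Nr2f1 were not. Past 2-fold between Cd74 and Empty was 1 gene, where 2.42% of all genes compared passed. This was Creb3l3 (CREBH), a membrane-bound factor of hepatic stress and fasting, at 1.22 ± 0.37. It was dim, with 29.7 units on the Cd74 array, 16.8 on the Tmem54 array and 13.4 on the Empty array. Nr1i3 (CAR), a xenobiotic receptor, followed at 0.55 ± 0.28. The lowest were Tbx3, a hepatoblast factor, at -0.58 ± 0.20 and Hlf, a circadian factor, at -0.45 ± 0.32. Tbx3 read 3234 units on the Cd74 array, 6743 on the Tmem54 array and 5048 on the Empty array, and it was 0.41 ± 0.20 higher with Tmem54 than with Empty on the log2 scale. Hlf, at 0.42 ± 0.27, was also high in that comparison, and Nfib was -0.08 ± 0.20 at the low end. Rxra, the partner of FXR, differed by -0.10 ± 0.20 between Cd74 and Empty. The list median was -0.10 for Cd74 against Empty and 0.05 for Tmem54 against Empty.

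Known targets of these factors were part detected and part not. Of 28 genes listed as HNF4A targets, 13 were detected, and Apoa1, Apob, Ttr, F7, F9, Otc, Fabp1 and Pklr were among the 15 that were not. Of 17 listed C/EBPα targets on the array, 9 were detected. FXR targets were detected in 8 of 22, with Nr0b2 (SHP), Abcb11 (the bile salt export pump), Slc51a, Slc51b, Cyp7a1, Cyp8b1 and Fgf15 among those that were not. The 8 include Slc10a1, whose probe lists transcripts of several genes, and without it 7 of 21 were detected. FOXA targets were detected in 11 of 18. Joined without repeats and without the members themselves, 32 of 69 targets were detected (46.4%), where 63.5% of all named genes were, and 31 of 68 (45.6%) without Slc10a1. These are textbook lists that were not limited to genes of adult liver, and they include the fetal gene Afp. Genes that stand in more than 1 list were counted once in the joint figure.

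**Figure D4:**
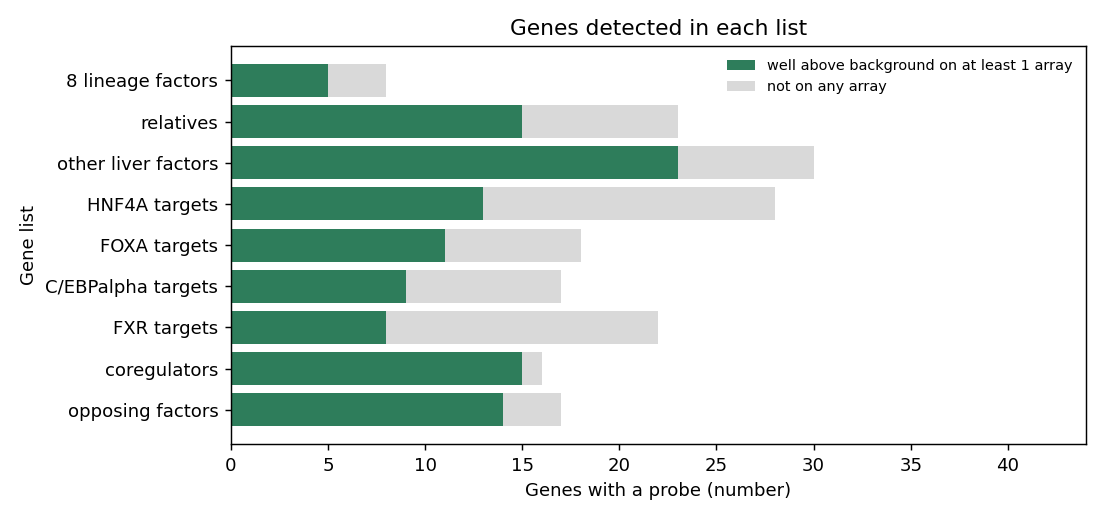
Number of genes in each list detected on any of the arrays (green) and on none (grey), among genes with a probe. The 8 lineage factors show 5 detected, HNF4A targets 13 of 28, FXR targets 8 of 22, and corepressors and coactivators 15 of 16.

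Between Cd74 and Empty, none of the 32 detected targets passed 2-fold (0 genes), where 2.42% of all genes compared did. The median of these targets was 0.00. Albumin (Alb), the main plasma protein made by hepatocytes and a FOXA and C/EBPα target, had the lowest value at -0.87 ± 0.20. It read 2993 units on the Cd74 array, 10261 on the Tmem54 array and 5727 on the Empty array, so it was lowest with Cd74 and highest with Tmem54. Tmem54 against Empty gave 0.83 ± 0.20 for Alb. Cd74 against Tmem54 gave -1.70 ± 0.20, the 1 target past 2-fold there, where 3.32% of all genes compared passed. Alpha-fetoprotein (Afp), the fetal counterpart beside it in the genome and a FOXA target, read 24693 units on the Cd74 array, 26705 on the Tmem54 array and 25519 on the Empty array. Those Afp readings differed by 0.02 ± 0.20 between Cd74 and Empty.

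Among HNF4A targets the extremes between Cd74 and Empty were Apoc2 at -0.56 ± 0.31 and Agt (angiotensinogen) at -0.39 ± 0.23, with Tm4sf4 at 0.27 ± 0.30 and Apoe at 0.24 ± 0.20. The median of the 13 was -0.08 for Cd74 and -0.04 for Tmem54, each against Empty. With Tmem54, Apom, a dim probe, was lowest at -0.71 ± 0.38, and Serpina1a at 0.15 and Tm4sf4 at 0.03 were highest. The C/EBPα list had a median of -0.22 for Cd74 against Empty, with Trf (transferrin) at -0.32 ± 0.20 beside Alb, and Cdkn1a (p21) at 0.23 and Cat (catalase) at 0.22 on the other side. Its Tmem54 median was 0.02, with Hp at -0.35 ± 0.37 and Csf3r at -0.08 lowest and Ass1 at 0.15 second to Alb. The FOXA list had medians of -0.27 and 0.05 for Cd74 and Tmem54 against Empty. Serpina1a at -0.33 ± 0.28 was lowest beside Alb for Cd74, with Cpt1a at 0.07 and Tdo2 at 0.05 highest, and for Tmem54 Tdo2 was -0.18 and Abcc2 0.15. The Cd74 median of the list was -0.02 with normexp and 0.00 among bright genes, so its size depended on dim probes.

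FXR targets were centred near 0 beside the lower Nr1h4 signal of the Cd74 array. The 8 detected had a median of 0.00 for Cd74 against Empty, with 4 of them below 0, and a median of 0.00 without Slc10a1. C3, a complement gene, was -0.41 ± 0.20, Apoc2 was -0.56 ± 0.31, Abcc2 (MRP2) was -0.29 ± 0.21 and Kng1 (kininogen) and Sdc1 (syndecan-1) were highest of those measured at 0.32 ± 0.21 and 0.01 ± 0.20. Abcb4, the phospholipid pump of the canalicular membrane, read 1191 units on the Cd74 array, 1218 on the Tmem54 array and 1243 on the Empty array. Slc27a5, a bile acid CoA ligase, was dim, with 23.6 units on the Cd74 array, 14.7 on the Tmem54 array and 12.8 on the Empty array. It was well above background on the Cd74 array alone and at least 1.89-fold higher there than on the Empty array, a bound that rests on readings close to background. For Tmem54 against Empty the 7 genes compared had a median of -0.04, with C3 at -0.32 ± 0.20 and Apoc2 at -0.14 lowest and Abcc2 at 0.15 and Kng1 at 0.12 highest.

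Factors set against the hepatocyte programme included the Id genes, which bind and block basic helix-loop-helix factors. Of 17 listed, 14 were detected, and 2 were at least 2-fold lower with Cd74 than with Empty, where 1.4% of all genes compared were. These were Id2 at -1.41 ± 0.20 and Id3 at -1.22 ± 0.20. Id1 stood at -0.94 ± 0.20. Id3 is named in the submitters' design text for these very samples, so its direction is not independent evidence. On the other side, Myc was 0.61 ± 0.20 and Sox4 0.48 ± 0.20 for Cd74 against Empty. With Tmem54, all 14 lay between -0.23 (Jun) and 0.20 (Id3), with Sox4 at -0.21 and Snai1 at 0.19. The list median was 0.03 in both comparisons. Corepressors and coactivators, which nuclear receptors and FOXA factors recruit, were detected in 15 of 16 and differed little. They ran between -0.16 (Prmt1) and 0.27 (Ppargc1b) for Cd74 against Empty, with Ppargc1a at -0.13 and Med1 at 0.15. For Tmem54 against Empty they ran between -0.11 (Ppargc1b) and 0.11 (Ncoa2), with Ep300 at -0.07 and Ncoa3 at 0.07.

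**Figure D5:**
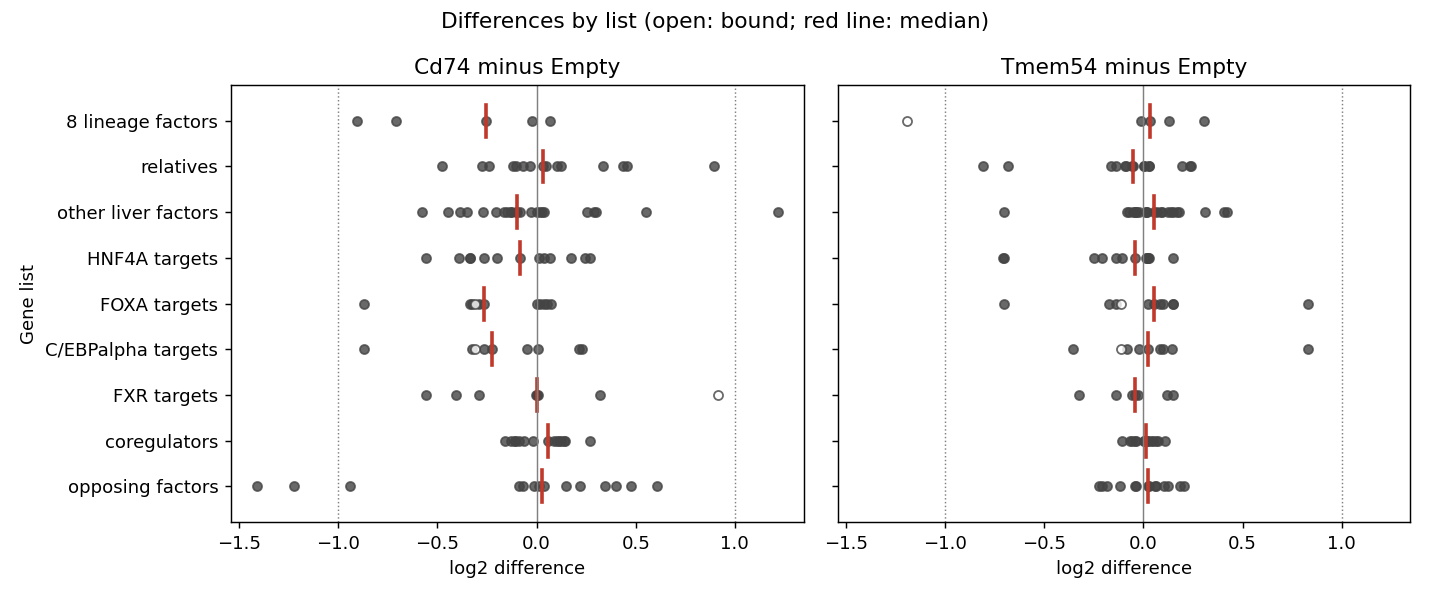
Log2 differences of the detected genes in each list for Cd74 minus Empty and Tmem54 minus Empty, with open circles for bounds, red lines for list medians and dotted lines at 2-fold. Id2, Id3 and Creb3l3 pass a dotted line for Cd74 and the Foxa3 bound does for Tmem54, while corepressors and coactivators stay within 0.27 of 0 in both panels.

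Between Cd74 and Tmem54, the genes of the factor and target lists past 2-fold, other than Alb, were Id2 at -1.47 ± 0.20 and Id3 at -1.43 ± 0.20. Just short of it were Id1 at -0.96 ± 0.20, Tbx3 at -0.98 ± 0.20, Ddit3 at 0.94 ± 0.20, Creb3l3 at 0.91 ± 0.34 and Hlf at -0.87 ± 0.31. Foxm1 was -0.67, Onecut2 -0.31 and Foxd3 0.71 among the relatives. Among the targets, Apom was 0.62, Serpina1a -0.48, Abcc2 -0.44, Apoc2 -0.42, Trf -0.41, Hp 0.36, Cdkn1a 0.25, Tdo2 0.23, Kng1 0.20 and Sdc1 0.07. Sox4 at 0.69 and Myc at 0.65 stood highest among the opposing factors. Ppargc1b at 0.38, Ep300 at 0.19, Prmt1 at -0.13 and Ppargc1a at -0.14 were the extremes of the cofactors.

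The tissue label was checked against markers. Of 11 hepatocyte markers, 5 were detected (Alb, Serpina1a, Trf, Tat and Ass1), and Ttr, Apoa1, Apob, Fgb, Ahsg and Cps1 were not well above background on any array. Their summed level, as a multiple of each array's 75th percentile, was 69.5 on the Cd74 array, 100.6 on the Tmem54 array and 88.9 on the Empty array. Trf alone made up 79.9%, 73.2% and 78.2% of these sums in the same order. All 5 detected hepatocyte markers were lower with Cd74 than with Empty, by -0.87 to -0.22 on the log2 scale, where 47.6% of all genes were below 0. For Tmem54 against Empty all 5 were above 0, where 50.9% of all genes were below it, with Tat at only 0.02 ± 0.22. Serpina1a was dim, at 27.7 units on the Cd74 array, 40.8 on the Tmem54 array and 36.6 on the Empty array. Fetal hepatoblast markers were detected in 4 of 5, with summed levels of 39.4, 40.5 and 38.7 for Cd74, Tmem54 and Empty, of which Afp made up at least 95.3%. Markers of bile duct and progenitor cells were detected in 8 of 9 (60.3, 70.8 and 65.6) and those of fibroblasts and stellate cells in 7 of 8 (119.8, 152.0 and 138.7, same order, at least 75.8% of it from Vim). All 7 detected fibroblast and stellate markers were also below 0 for Cd74 against Empty, and 1 of the 7 was for Tmem54 against Empty. Col1a1 and Col3a1 were each -1.08 for Cd74 against Tmem54. Endothelial and lymphatic markers, which bear on Prox1, were detected in 3 of 8, with Cdh5, Kdr, Flt4, Pdpn and Tek dim on all arrays, and their sums were 0.249, 0.259 and 0.261. Macrophage and B cell markers were detected in 5 of 8 (11.8, 12.1 and 12.5), with Adgre1, Clec4f and Cd79a dim, and Ptprc came from 1 bright probe of 7. Intestinal and pancreatic markers were detected in 4 of 7 (2.67, 5.99 and 4.98), with Cdx2, Pdx1 and Ptf1a dim. Lgr5 made up at least 97.0% of these sums and was at -1.19 for Cd74 against Tmem54. The sums of 6 of the 7 marker lists, all but the fetal hepatoblast one, were lowest on the Cd74 array, as Foxa1 and Nr1h4 were, and their part in those results was not tested.

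The promoters of the 8 genes were searched for motifs of these same factors, because the set is known to bind its own control regions. RefSeq (GRCm38.p6) gave 12 promoter windows for the 8 members, each 250 bases before the start and 50 after it. The forkhead letters TGTTTAC, read on both strands, were in 1 of the 12 and in 3.65% of all 32851 promoters of that length. The ONECUT letters ATTGAT were in 2 of 12 and in 7.54% of all. The letters CAAAGTCCA for HNF4 (0.475% of all promoters), TTGCNNCAA for C/EBP (2.08%), and the FXR inverted repeat of AGGTCA around 1 free base (0.00913%) were in none of the 12. The C/EBP letters hold 2 free bases between their fixed parts. Sites with fewer bases there were not searched, so C/EBP sites cannot be called absent from the 12. The bases before the start are printed for the Foxa1 window chr12:57546062-57546361 (minus strand), with the forkhead match at position -141, and for both Hnf4a windows (plus strand). The upstream Hnf4a window, chr2:163506607-163506906, is that of P2 and has an ONECUT match at position -59. The downstream one, chr2:163546905-163547204, is that of P1 and has no match to these motifs. Capitals mark the matched letters.
Foxa1: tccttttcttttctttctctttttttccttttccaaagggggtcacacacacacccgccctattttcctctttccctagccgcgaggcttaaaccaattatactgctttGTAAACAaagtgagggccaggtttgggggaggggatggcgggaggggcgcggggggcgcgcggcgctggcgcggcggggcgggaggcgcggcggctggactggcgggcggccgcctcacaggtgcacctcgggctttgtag
Hnf4a upstream (P2): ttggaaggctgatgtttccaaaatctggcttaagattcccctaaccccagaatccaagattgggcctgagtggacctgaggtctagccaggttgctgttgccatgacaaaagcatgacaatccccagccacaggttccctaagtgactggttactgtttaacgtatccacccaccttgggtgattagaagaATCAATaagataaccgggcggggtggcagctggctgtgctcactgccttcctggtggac
Hnf4a downstream (P1): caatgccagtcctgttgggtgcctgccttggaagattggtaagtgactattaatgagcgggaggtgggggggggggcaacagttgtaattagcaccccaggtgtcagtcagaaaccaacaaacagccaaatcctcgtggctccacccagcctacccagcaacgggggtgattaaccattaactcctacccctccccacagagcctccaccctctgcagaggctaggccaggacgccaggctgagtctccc
A match is only the presence of these letters, and the other ONECUT match was in 1 of the Foxa2 promoters at position -213. The arrays read Onecut1 and Foxa1 but not Hnf4a, and binding was not measured.

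The genes whose pair of differences was nearest to that of Nr1h4 were sought among 9910 bright genes. These were Hs3st1 (a heparan sulfate sulfotransferase) at a distance of 0.017 log2 units, Serpinb2 at 0.020, Dhcr7 (the last step of cholesterol synthesis) at 0.026, Sod3 at 0.043 and Ankle1 at 0.052. Hs3st1, for example, was -0.69 for Cd74 against Empty and -0.01 for Tmem54 against Empty. In all, 15 genes lay within 0.1 log2 units of Nr1h4 and 88 (0.888%) within 0.2, over 3 arrays.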

How the data were processed

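RNA of 3 Hepa1c1c7 cultures was measured on 1 array each, grouped by the transfection label. Agilent Feature Extraction 12.0.3.1 gave the deposited intensity values, as the submitters' processing notes record. Per the file headers, this processed signal is linear, background-subtracted and detrended, with surrogates for signals below their error, so dim values are bounded and not measured. The deposited value table is a ratio of that signal to 1 constant per array (559.8 for Cd74, 580.7 for Tmem54 and 580.3 for Empty), linear and uncentred, with column medians of 0.0393, 0.0390 and 0.0409.

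From the deposited intensity, log2 values were taken here minus each array's 75th percentile over spots other than controls (656.4, 692.7 and 686.8 units for Cd74, Tmem54 and Empty). Control spots and 119 to 135 outlier spots per array were left out. A gene took its brightest probe, by mean over the arrays, among those detected (well above background) on any array. A probe detected on only 1 array of a pair gives a bound, written as at least N-fold. It is set against the lowest detected signal of the dim array, or the probe's own if that is higher. Its size holds for this setting. A gene was counted at 2-fold or more.

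Symbols came from RefSeq (GRCm38.p6): 34615 probes matched by accession, 9170 by symbol and 283 by synonym, and 12537 had none. Any accession listed for a probe was used, so a probe that lists several genes may carry the name of only 1, as the bright Slc10a1 probe does. Probe positions are those of the array files (mm9). The analysis used Python 3.11.15, pandas 2.3.3, R 4.3.3 and limma 3.58.1, and was tested on simulated data. With 1 array per vector no test was possible, the number of arrays limits the precision, and errors are model values within an array.

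Members and lists were chosen with earlier results of these data known. Text names all members, list genes past 2-fold, and the 2 highest and 2 lowest of each factor or target list in each comparison, apart from withheld genes, which are not reported here. The likeness rule pointed to Foxa3, but its Tmem54 difference is a bound, so Nr1h4 was used. Motifs, marker genes named in prose and some undetected targets were picked after values were seen. In all, 13 alternatives were run. Scaling on each array's own detected median and the FXR list without Slc10a1 were added after seeing the data.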

Additional observations from a re-analysis of the deposited data

How the results depend on the processing

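No member or list result changed sign while called, but values near 0 that were not called did change sign. The median of HNF4A targets for Cd74 against Empty was -0.08 in the main setting, 0.04 with normexp and 0.08 with no filter. Onecut1 for Tmem54 against Empty was 0.03 in the main setting and -0.01 with normexp. Of 145 member values under the alternatives, 139 moved by less than the model error, and of 249 list medians 247 did. The 139 include values that could not move. No member probe has an outlier flag (0 probes), and the mean of probes equals the main value for a gene with 1 detected probe. The filters on dim probes keep or drop a measured member value and do not change it. The count thus overstates how stable the member values were. Between Cd74 and Empty, 2 of 5 members passed a 1.5-fold threshold (Foxa3 and Nr1h4), where 1179 of 15674 genes did. When each array was scaled on its own detected median, 1 of 5 passed 2-fold (Foxa3, -1.03), where 420 of 15674 genes did. Between Tmem54 and Empty, 0 of 5 members passed 2-fold with normexp, where 67 of 15565 genes did. The next-brightest probe, both arrays above background and bright genes only also gave 0, with 1, 4 and 3 members compared. Those settings leave out Foxa3, the only member past 2-fold there, so their 0 does not retest it. Between Cd74 and Tmem54, 1 of 5 members passed 1.5-fold, where 1526 of 15466 genes did. The member median in that comparison was -0.028 with no filter, which takes in 3 genes not well above background on any array. Among all genes the counts past the threshold for Cd74 against Empty were 119 of 15671 with normexp and 101 of 6915 with the next-brightest probe. They were 193 of 14732 with both arrays above background, 61 of 9911 among bright genes, 1622 of 24944 with no filter and 1179 of 15674 at 1.5-fold. In the same order they were 67 of 15565, 67 of 6891, 92 of 14729, 21 of 9911, 1359 of 24944 and 594 of 15563 for Tmem54 against Empty. For Cd74 against Tmem54 they were 198 of 15464, 133 of 6848, 310 of 14584, 126 of 9911, 1710 of 24944 and 1526 of 15466. The number of genes compared differs by setting, so the counts alone are not like for like. Scaling on each array's own detected median moved the median of all genes to -0.11 for Cd74 and -0.13 for Tmem54 against Empty, with Foxa2 at -0.06 for Cd74 and Foxa1 at -0.00 for Tmem54. It gave 72 higher of 239 for Tmem54, against 81 of 207. The next-brightest Nr1h4 probe gave -0.22 against Empty and -0.10 against Tmem54 for Cd74, and the mean of its probes gave -0.47 and -0.40. The cause of these shifts was not tested. No paired analysis was possible because each vector has 1 array. Signal over background limits Foxa3, Hnf4a, Cebpa and Prox1.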
